A study of Mus musculus with 6 samples.

Results

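Transcript levels of 8 neural crest regulators were read in day 6 embryoid bodies: the paired box genes Pax3 and Pax7, the AP-2 genes Tfap2a, Tfap2b and Tfap2c, the SoxE genes Sox9 and Sox10, and the forkhead gene Foxd3. The members were taken as all probe sets annotated to one of these genes alone, which gave 20 of the 45037 probe sets of the array that are not controls: 3 each for Pax3, Tfap2a, Tfap2c, Sox9 and Sox10, 2 each for Pax7 and Tfap2b, and 1 for Foxd3. Embryoid bodies, the floating clusters that mouse embryonic stem cells form as they differentiate, were grown from the Hoxb4i line, which carries a tet-on cassette for HOXB4, and were seeded at 3500 cells/ml. The experiments, lettered A, B and C, each gave 1 array of bodies exposed to doxycycline at 2 µg/ml from day 4 for 48 hours and 1 array of uninduced bodies, so both groups held 3 arrays. The cassette was present in both groups, all arrays came from this one line, and doxycycline without the cassette is not among the samples, so HOXB4 and doxycycline itself cannot be told apart.

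The neural crest arises at the border between the neural plate and the surface ectoderm, under Wnt, BMP and FGF signals. Border specifiers, among them Pax3, Pax7, the AP-2 factors, Msx1 and the Zic genes, come first; crest specifiers such as Foxd3, Sox9 and Sox10 follow, and cells then leave the neural tube as migratory crest that forms peripheral neurons, glia, pigment cells and part of the skull. None of these genes is exclusive to the crest: Pax3 and Pax7 also mark the dorsal neural tube and the somites, Sox9 cartilage, Tfap2a and Tfap2c surface ectoderm, Tfap2c the trophoblast and germ cells, and Foxd3 pluripotent cells.

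The table holds 1 MAS5 signal per probe set and array, a linear brightness without a detection call. A level below is such a signal, and a difference is one of log2(signal + 18.8). Of the 20 member probe sets, 16 had a mean signal over the 6 arrays at or above the 40th percentile of 60.5 and were tested; the other 4, which belong to Sox9, Sox10 (2) and Foxd3, lay below it. Nearest to this limit were Tfap2c 1418147_at inside, with a mean of 71.4, and Sox10 1451689_a_at outside, with 55.0. The names of Tfap2a 1426048_s_at and Tfap2c 1436392_s_at bear the suffix of probe sets that can match several transcripts.

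Hoxb4 itself, the induced gene, had signals of 46.5, 119.8 and 113.5 on the uninduced arrays of A, B and C and 116.4, 129.5 and 175.5 on the induced ones (1451761_at). On its other probe set, 1460379_at, the signals were 78.2, 253 and 27.6 without and 136.3, 261.4 and 150.7 with doxycycline. Both were higher with doxycycline in 3 of 3 experiments (log2 differences of 0.57 and 0.86), and neither passed limma's test (adjusted p = 0.99996 for each). Whether either probe set reads the HOXB4 of the cassette is not stated. The uninduced array of A stood apart in 1 control of RNA quality: its ratio of 3' to 5' signal for Actb was 2.88, against 1.26 to 1.48 on the other 5. For Gapdh the ratio was 1.08, against 0.83 to 0.90. Its value was the top or the bottom one on 53.8% of the tested probe sets, a share not computed for the other arrays. Some differences between experiments without the uninduced array of A are given below.

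**Figure D1:**
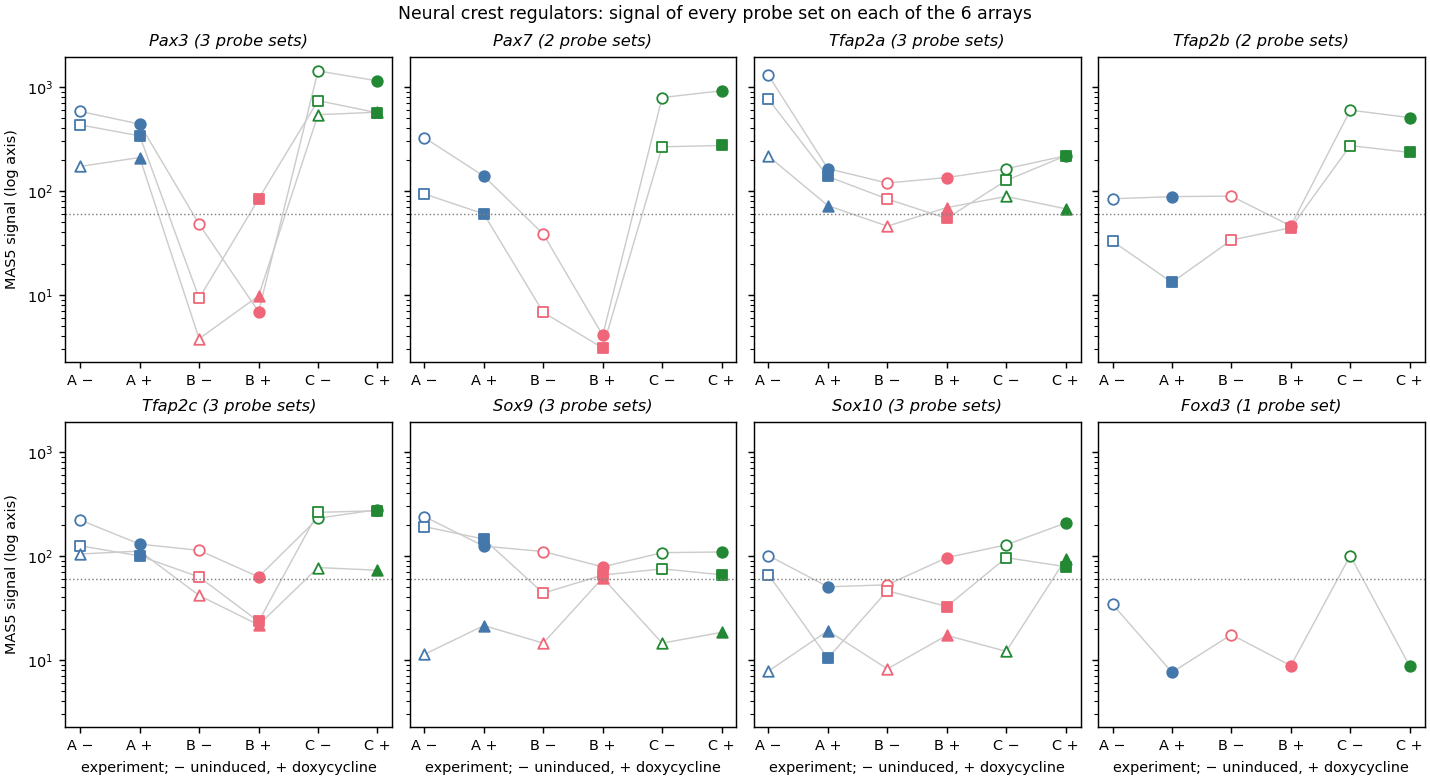
MAS5 signal (log axis) of the 20 member probe sets on the 6 arrays, 1 panel per gene and 1 symbol shape per probe set; open symbols are uninduced, filled symbols doxycycline arrays, colours mark experiments A, B and C, and the dotted line is the limit of 60.5 that the mean had to reach for a probe set to be tested. Pax3 and Pax7 are highest in C and lowest in B, Tfap2b stands high in C, Tfap2a has its highest value on the uninduced array of A, and Foxd3 lies below the dotted line on all arrays but the uninduced array of C.

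The first comparison set the 3 experiments against one another, with doxycycline as a term in the fit. Pax3, Pax7 and Tfap2b, genes of the neural plate border and the dorsal neural tube, differed between experiments on every probe set, with their highest levels in C; of the 3 Tfap2c probe sets 1 differed, and no probe set of Tfap2a, Sox9 or Sox10 did with all 6 arrays. By limma's F test, 8 member probe sets from 4 genes passed an adjusted p of 0.05, of 20 in all and 16 tested; 11.6% of all tested probe sets passed. On 11 of the 20 both arrays of C lay above the other 4 arrays, 10 of them among the 16 tested, where 18.6% of all tested probe sets did so. On 11 of the 16 tested both arrays of B lay below the other 4, where 16.4% of all tested probe sets did so. With the tissue measured in bulk, fewer cells of a type and less RNA per cell cannot be told apart in any of these differences.

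Pax3, a paired box factor that marks the dorsal neural tube, the early crest and the somites, was read by 3 probe sets. On the brightest, 1441743_at, the signals were 579.6 and 438.2 for A, 47.8 and 6.9 for B, and 1419.8 and 1139.4 for C (uninduced first in each pair, here and below). Both arrays of C were the highest and both of B the lowest. The log2 difference of C from B was 4.96 (95% confidence interval 4.19 to 5.74, adjusted p = 0.000172), that of B from A -3.66 (-4.43 to -2.89, adjusted p = 0.00333), and that of C from A 1.30 (0.53 to 2.08), which missed the threshold (adjusted p = 0.0565). The other probe sets gave the same order of experiments. Signals on 1420389_at were 430.2 and 337.7 for A, 9.3 and 83.8 for B, and 735.9 and 562.6 for C. On 1430335_a_at they were 171.7 and 209.2, 3.8 and 9.8, and 539.4 and 570.3. C stood above B by 3.62 (adjusted p = 0.00506) and 4.50 (0.000268) on these, and above A by 0.73 (0.409) and 1.46 (0.0455).

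Pax7, the paralog of Pax3 with a similar place in the dorsal neural tube and the cranial crest, showed the same order. Its signals on 1444596_at were 324.5 and 138.6 for A, 38.5 and 4.1 for B, and 788.1 and 915.2 for C. On 1452510_at they were 93.5 and 60.1, 6.8 and 3.1, and 265.1 and 272.9. On each probe set both arrays of C were the highest and both of B the lowest. C exceeded B by 4.58 (3.61 to 5.56, adjusted p = 0.000587) and by 3.60 (2.60 to 4.60, adjusted p = 0.00202). From A to B Pax7 fell by 2.68 (adjusted p = 0.0177) and by 1.99 (0.0476). The difference of C from A was 1.90 (adjusted p = 0.0403) on the first and 1.61 on the second, where it missed the threshold (0.0623).

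Tfap2b, an AP-2 factor of the crest, the dorsal neural tube and the kidney, differed in another way: it was high in C, and A and B overlapped on 1435670_at, while on 1423340_at both arrays of A lay below both of B. On 1435670_at the signals were 84.0 and 88.0 for A, 89.1 and 46.0 for B, and 596.4 and 505.8 for C; on 1423340_at they were 32.8 and 13.2, 33.7 and 44.2, and 272.1 and 234.1. C stood above B by 2.76 (1.97 to 3.56, adjusted p = 0.00236) and 2.24 (1.19 to 3.29, 0.0202), and above A by 2.44 (1.64 to 3.23, 0.0119) and 2.74 (1.69 to 3.79, 0.0178). Between B and A the differences were -0.33 (-1.12 to 0.47) and 0.50 (-0.55 to 1.55), neither past the threshold.

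Sequences upstream of the annotated starts were read for the members that the RefSeq promoter table lists, Pax7, Tfap2a, Tfap2b and Foxd3, as the 250 bases before the start on build GRCm38.p6. Those of Tfap2b and Pax7 are shown because both genes were high in C and because HOXB4, the induced factor, is a homeodomain protein, whose class binds a TAAT core. Both genes were high in C with and without doxycycline, and neither was called with it. A link of these levels to HOXB4 was not tested. Capitals mark TAAT on either strand.
Tfap2b (chr1:19211804-19212053, plus strand): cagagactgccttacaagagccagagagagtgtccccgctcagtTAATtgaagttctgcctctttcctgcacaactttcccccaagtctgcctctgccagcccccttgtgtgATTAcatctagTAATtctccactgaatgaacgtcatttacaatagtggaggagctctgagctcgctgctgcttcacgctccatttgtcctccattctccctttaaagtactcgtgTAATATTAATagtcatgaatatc
Pax7 (chr4:139832969-139833218, minus strand): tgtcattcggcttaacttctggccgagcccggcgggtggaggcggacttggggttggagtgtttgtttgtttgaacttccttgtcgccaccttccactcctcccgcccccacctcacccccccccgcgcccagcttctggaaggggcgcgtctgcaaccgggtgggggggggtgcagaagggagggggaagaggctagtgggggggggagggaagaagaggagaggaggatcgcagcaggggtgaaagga
The Tfap2b stretch holds 6 TAAT matches, of which the last 2 overlap, and has a GC share of 46.4%; the Pax7 stretch holds 0 and has a GC share of 65.2%. At least 1 match occurs in 54.9% of the 32851 stretches of this length in the table, whose median GC share is 52.4%. The Tfap2a starts, of which there are 2, hold 4 and 3 matches and the Foxd3 start 1. TAATTA, which contains TAAT, is found at 1 of the Tfap2a starts (4.84% of all stretches), and TATAAA (12.4%), TGATTNAT, a joint HOX and PBX motif (2.82%), and GCCNNNGGC, the motif of the AP-2 proteins themselves (13.7%), at none of the 5, all searched on both strands. These are matches of letters and were not tied to binding.

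Tfap2c, the AP-2 factor of surface ectoderm, trophoblast and germ cells, differed less. Its signals on 1436392_s_at were 220.7 and 129.6 for A, 112.9 and 62.8 for B, and 229.9 and 277.6 for C, and the difference of C from B was 1.39 (0.54 to 2.24, adjusted p = 0.0536). On 1448977_at, with 124.9 and 99.8, 62.6 and 23.4, and 261.8 and 271.0, it was 2.28 (1.37 to 3.19), which passed (0.0102). On 1418147_at it was 0.92 (adjusted p = 0.254), with 104.2 and 111.1 for A, 41.6 and 21.7 for B, and 77.2 and 72.7 for C. All 3 probe sets had their lowest levels in B, and they disagreed on the order of A and C.

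Tfap2a, which acts at the neural plate border, in the crest and in surface ectoderm, stood high on a single array. On 1421996_at the signal was 1289.1 on the uninduced and 163.6 on the induced array of A, 118.9 and 134.3 for B, and 163.2 and 217.4 for C. On 1426048_s_at the values were 758.5 and 137.5, 83.5 and 54.4, and 126.0 and 217.1, and on 1421995_at 215.3 and 72.1, 45.8 and 69.1, and 88.4 and 67.3. The uninduced array of A exceeded the next highest array 5.93-fold, 3.49-fold and 2.44-fold on these 3; it did so over 3-fold on 0.244% of all tested probe sets. This is the array with the high 3' to 5' ratio, and the part of that ratio in the Tfap2a level was not tested. With all 6 arrays no contrast between experiments passed the threshold for Tfap2a on any probe set. On 1421996_at the difference of C from A was -1.24 (-2.84 to 0.37, adjusted p = 0.285). Leaving out the uninduced A array gave 0.32 (adjusted p = 0.715), and leaving out the induced A array gave -2.79, past the threshold. In both fits A is a single array, in the latter the one at 1289.1, which is assumed to vary like the arrays of B and C, so neither p measures the spread within A.

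With all 6 arrays, no probe set of Sox9 or Sox10 differed between experiments past the threshold. For Sox9, a SoxE factor of premigratory crest and cartilage, the signals on 1451538_at were 238.4 and 124.0 for A, 110.0 and 78.4 for B, and 107.3 and 108.9 for C; on 1424950_at they were 190.8 and 144.9, 43.8 and 65.4, and 75.0 and 65.8. Both arrays of A were the highest on both, as they were on 15.5% of all tested probe sets. The differences of C from A were -0.59 (adjusted p = 0.336) and -1.06 (0.144). The third probe set, 1433889_at, was not tested and held 11.3 to 21.4 on 5 arrays and 61.4 on the induced array of B.

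Sox10, which keeps migrating crest cells and glia in their state, had signals of 100.5 and 50.4 for A, 52.7 and 96.1 for B, and 127.5 and 206.9 for C on 1424985_a_at. Both arrays of C were the highest, but the difference from B, 1.00, had an interval of -0.09 to 2.10 and an adjusted p of 0.244, and the difference from A, also 1.00, one of -0.09 to 2.09 and 0.212. Without the uninduced array of A, which leaves A with 1 array, C exceeded A by 1.72. The other probe sets were too dim to be tested: 10.4 to 96.1 on 1451689_a_at, and 7.8 to 19.1 on 5 arrays and 92.9 on the induced array of C on 1425369_a_at. Foxd3, a repressor of the earliest crest and of pluripotent cells, was also not tested, with 34.3 and 7.6 for A, 17.5 and 8.8 for B, and 100.5 and 8.7 for C. Of the 4 probe sets of Sox10 and Foxd3, 1 reached the mean for testing. On the arrays of C, 2 Sox10 probe sets had both signals above 60.5, and the third Sox10 probe set and Foxd3 had 1.

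**Figure D2:**
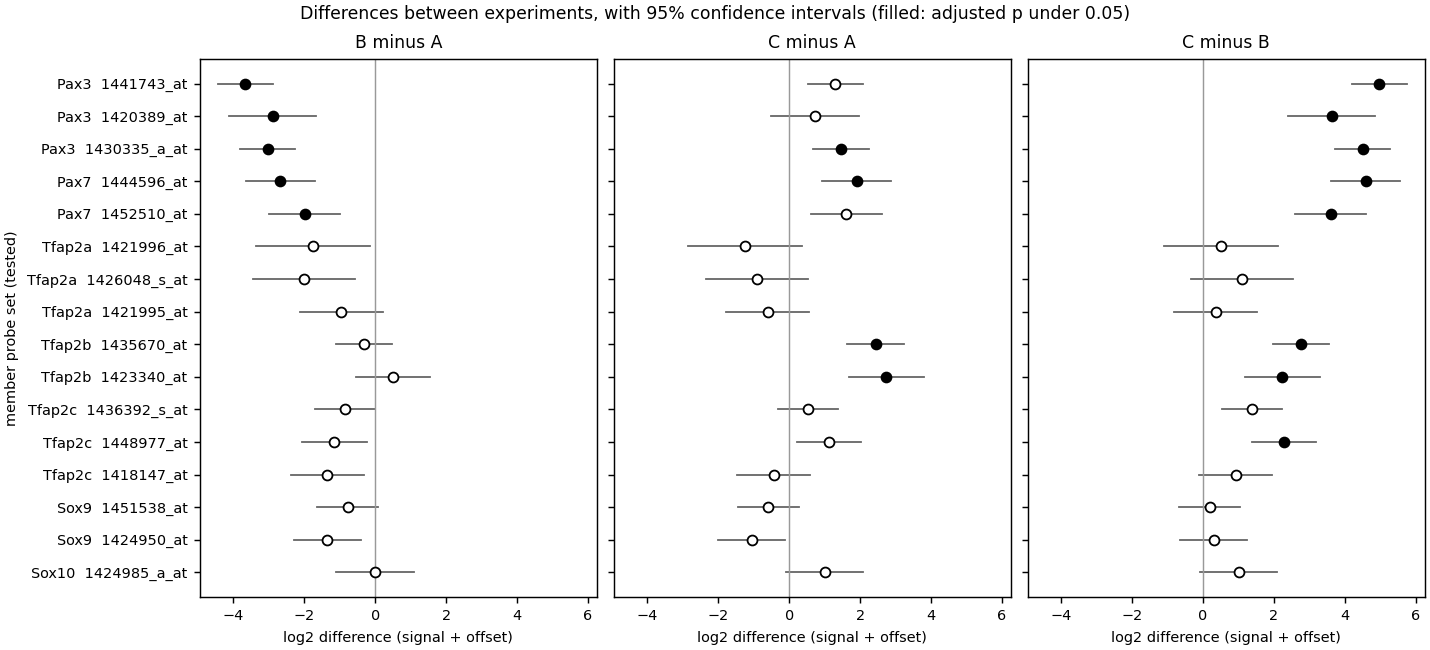
Log2 differences of the 16 tested member probe sets between experiments (x axes, same scale), with 95% confidence intervals from limma's fit with doxycycline as a term; filled points passed an adjusted p of 0.05. In C minus B, 8 points are filled and all lie to the right of 0, 5 of them for Pax3 and Pax7 at 3.60 to 4.96; the filled points of B minus A are the 5 of Pax3 and Pax7, to the left of 0.

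Counted by contrast, 8 member probe sets were higher in C than in B, where 4.33% of all tested probe sets were higher, and 0 were lower. From A to B, 5 fell (all of Pax3 and Pax7; 1.91% of all tested probe sets were lower in B), and 0 rose. C lay above A on 4 (1 of Pax3, 1 of Pax7 and both of Tfap2b; 2.52% of all tested probe sets were higher in C) and below it on 0. The median difference of C from B over the 16 tested was 1.81, beside 0.07 over all tested probe sets. These contrasts share arrays, and each experiment has 2 arrays, which differ in doxycycline. Of the 8 calls between C and B, 6 were kept whichever of the 6 arrays was left out; Tfap2b 1423340_at and Tfap2c 1448977_at were lost, the first without the uninduced array of B or either array of C and the second without the induced array of B or of C (adjusted p up to 0.157 and 0.105). Of the calls between B and A 2 of 5 were kept in this way, and of those between C and A 0 of 4. Without the uninduced array of A, the Pax7 1452510_at difference of B from A was -1.78. The differences of C from A were then 1.08 on Pax3 1441743_at and 1.27 on Pax3 1420389_at. An experiment left with 1 array is assumed in these fits to vary like the other experiments, so no p measures the spread within it.

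Genes of the dorsal neural tube and of neural progenitors were, as Pax3, Pax7 and Tfap2b were, higher in C than in B. Of 8 tested dorsal neural tube genes 5 were higher in C than in B (adjusted p under 0.05) and 0 lower, with a median difference of 3.86; 9.59% of all tested probe sets differed in either direction. The roof plate ligand gene Wnt1 had signals of 300.2 and 314.6 for A, 18.1 and 22.4 for B, and 1041.9 and 1037.0 for C, the same order as Pax3. Msx3 (29.9 to 88.7 in A and B, 1071.7 and 1165.3 in C) and Olig3 (13.3 to 54.5, then 624.0 and 1617.6), both expressed by dorsal progenitors, were high in C in the manner of Tfap2b. The summed signal of this list was 804.9 and 1585 for A, 269.9 and 350.5 for B, and 9800.1 and 12949 for C, and no listed marker stood at 0 on any array. Its 8 genes include Wnt1, Wnt3a and Zic1, which are also on the pathway lists below. Zic1 alone held 145.0 and 765.6 of the summed signal for A, 47.0 and 19.5 for B, and 6391 and 7907 for C.

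Among 12 neural progenitor genes 8 were higher in C than in B and 0 lower, with a median of 3.17. From A to B 6 of the 12 fell, with a median of -2.22, as Pax3 and Pax7 did and Tfap2b did not. Against A, 3 were higher in C and 1 was lower, where 6.82% of all tested probe sets differed in either direction. Otx2, a forebrain and midbrain gene, held 3861 and 2780 for A, 26.9 and 35.5 for B, and 2964 and 2542 for C; Sox2 held 4390 and 2688, 429.3 and 321.5, and 6163 and 6065. The summed signal was 19243 and 13051 for A, 6289 and 5773 for B, and 26290 and 25405 for C. Somites also express Pax3 and Pax7, so their markers were read as well: of 6 tested paraxial mesoderm genes 1 was higher in C than in B, En1, which the midbrain and hindbrain also express (139.8 and 136.0, 11.1 and 19.0, 1086.4 and 722.7). The other 6 on the array were not tested, and Myf5, the first myogenic factor, stood at 0.5 to 3.1 on 5 arrays and 45.4 on the uninduced array of C. The summed signal of the 12 was 611.4 and 1234 for A, 417.3 and 474.5 for B, and 1710 and 1592 for C. En1 alone held 139.8 and 136.0 of these sums for A, 11.1 and 19.0 for B, and 1086.4 and 722.7 for C. The part of the cell makeup in the member levels was not tested.

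Markers of the other tissues in which members act gave no common direction. Of 10 tested pluripotency genes 3 were higher in C than in B and 0 lower (Dppa5a, Nanog and Zfp42; median 1.18), and their summed signal was 2351 and 2394 for A, 1818 and 1516 for B, and 4211 and 4304 for C. Surface ectoderm and simple epithelium genes fell from B to C on 6 of 10 tested, led by the keratin genes Krt8 (-3.37) and Krt18 (-3.04), and 0 rose; their summed signal was 30477 and 28084 for A, 43959 and 42559 for B, and 5633 and 5965 for C. Trp63 and Krt14, which mark stratified ectoderm and its precursors, were too dim to be tested. Of 9 tested trophoblast and germ cell genes 1 fell from B to C, Hand1 at -3.38. Cartilage genes split: Col2a1, a Sox9 target, was higher in C than in B (4.87) and lower in B than in A (-3.74, adjusted p = 0.00333), the order of Pax3; Col9a1 and Hapln1 were lower (-3.93 and -2.93 for C against B), and Acan was not tested. Blood and endothelium genes were lower in C than in B on 7 of 11 tested, and endoderm genes on 7 of 10.

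Other genes of the crest pathway did not share one direction. Of 11 tested neural plate border genes 4 were higher in C than in B and 0 lower: Zic1 by 7.15, with signals of 145.0 and 765.6 for A, 47.0 and 19.5 for B, and 6391 and 7907 for C, and Gbx2, Zic5 and Zic2 by 4.49, 4.36 and 2.30. The border genes Msx1 and Msx2 were bright on every array, at 1033 to 2839, and did not differ past the threshold (-0.54 and -0.62 for C against B). Among 20 tested crest specifier and epithelial to mesenchymal transition genes 4 were higher and 2 lower. Snai2, the repressor that accompanies delamination, was lower in C (-4.97), with signals of 4515 and 2240 for A, 12139 and 10110 for B, and 542.0 and 204.9 for C, and Ets1 was lower too (-2.64). The 4 higher ones were Id3 at 1.19 and, named after their values were seen, the cadherin gene Cdh6 at 1.52, Mycn at 1.18 and Rhob at 0.99. Snai2 and Ets1, which mesenchyme and endothelium also express, thus ran against Pax3.

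Of 13 tested migratory crest genes 3 were higher in C and 5 lower. The retinoid binding protein gene Crabp1 reached 17450 and 31325 in C, against 1331 to 3522 in A and B, and the endothelin receptor gene Ednrb was higher by 1.65, while the semaphorin coreceptor gene Nrp1 (-4.30) and the transcription factor gene Mef2c (-3.09) were lower. The nerve growth factor receptor gene Ngfr, a surface marker of migratory crest, held 18.7 to 141.9, and Erbb3 199.0 to 563.7, neither with a difference past the threshold. Of 14 tested genes of crest derivatives 2 were higher, Fabp7 (5.83) and, named after its value was seen, Neurog1 (2.99). Another 4 were lower, led by Hand2 (-5.37). Fabp7 is also on the neural progenitor list, and Hand1, among the 4 lower, is also on the trophoblast and germ cell list. Neither this list nor that of migratory crest is exclusive to the crest. The part of other tissues in these directions was not tested. Of 19 tested genes of the inducing signals 8 were higher and 4 lower: Wnt1 (4.76) was among the higher, and Bmp2 (-3.42), Bmp4 (-2.74) and the BMP feedback gene Smad6 (-2.75) among the lower. Over the 5 pathway lists the median difference lay between -0.73 for migratory crest and 0.68 for the inducing signals.

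**Figure D3:**
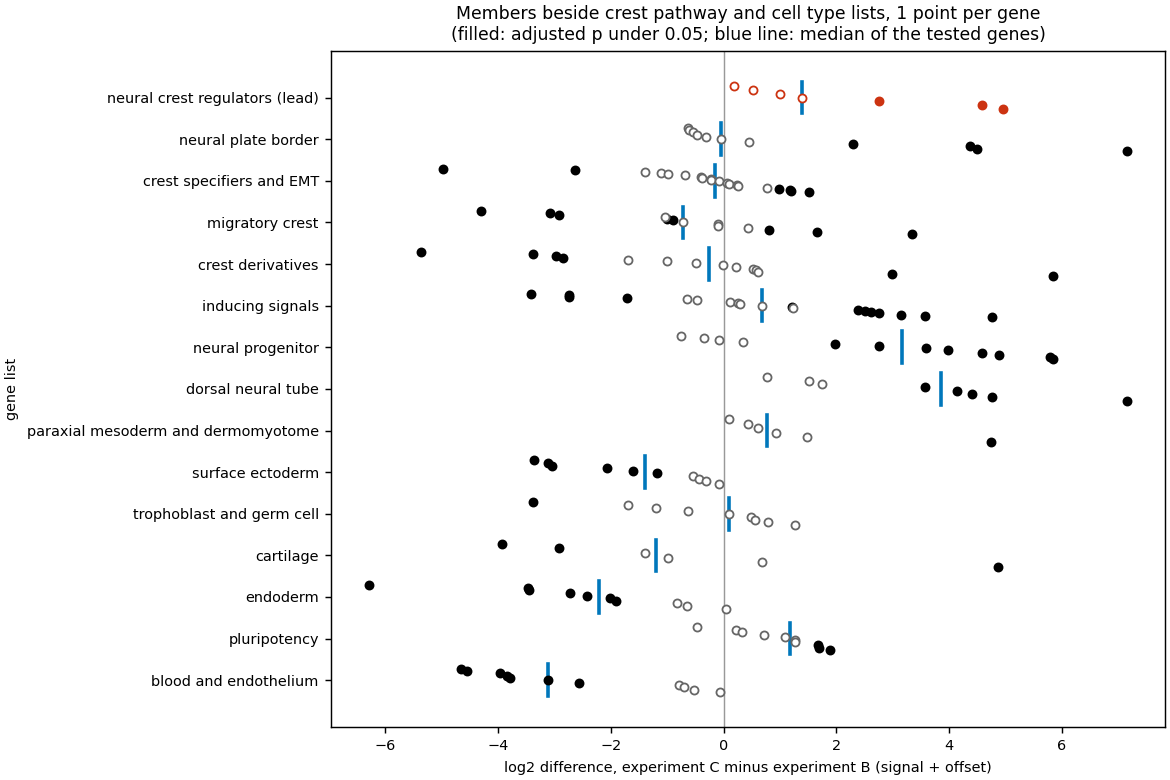
Log2 difference of experiment C from experiment B (x axis) for the lead probe set of each tested gene, by list (y axis); the members are in red, filled points passed an adjusted p of 0.05, and blue lines are medians of the tested genes. The members with filled points, Pax3, Pax7 and Tfap2b, lie at 2.76 to 4.96, beside the dorsal neural tube and neural progenitor genes with medians of 3.86 and 3.17; surface ectoderm, endoderm and blood genes lie mostly to the left of 0.

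The second comparison set induced against uninduced embryoid bodies. No member differed past the threshold: 0 of 16 tested probe sets were called by limma, as were 0% of all 27022 tested, and 0 had an unadjusted p under 0.05, where 0.511% of all tested had. The point estimates lay between -0.77 and 0.39, 13 of 16 below 0 and 3 above, where 13898 of all 27022 tested lay above 0. Their median was -0.34 beside 0.01 over all tested probe sets (limma, adjusted p = 0.99996 for every member). The 16 read 7 genes, and probe sets of the same gene are not separate observations. With the experiment letter as a replicate block 0 were called again (adjusted p between 0.930 and 0.995), and 1, Pax3 1441743_at, had an unadjusted p under 0.05 (3.94% of all tested probe sets had). Doxycycline intervals below are of the fit without the block unless stated, so they include the spread between experiments. In A 15 of the 20 member probe sets, 13 of them tested, were lower with doxycycline, where 53.5% of all tested probe sets were; in B 11 of the 20 were, and in C 9. On 5 of the 20 the uninduced A array had the top signal (29.9% of all tested probe sets); the part of its high Actb ratio in these counts was not tested.

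**Figure D4:**
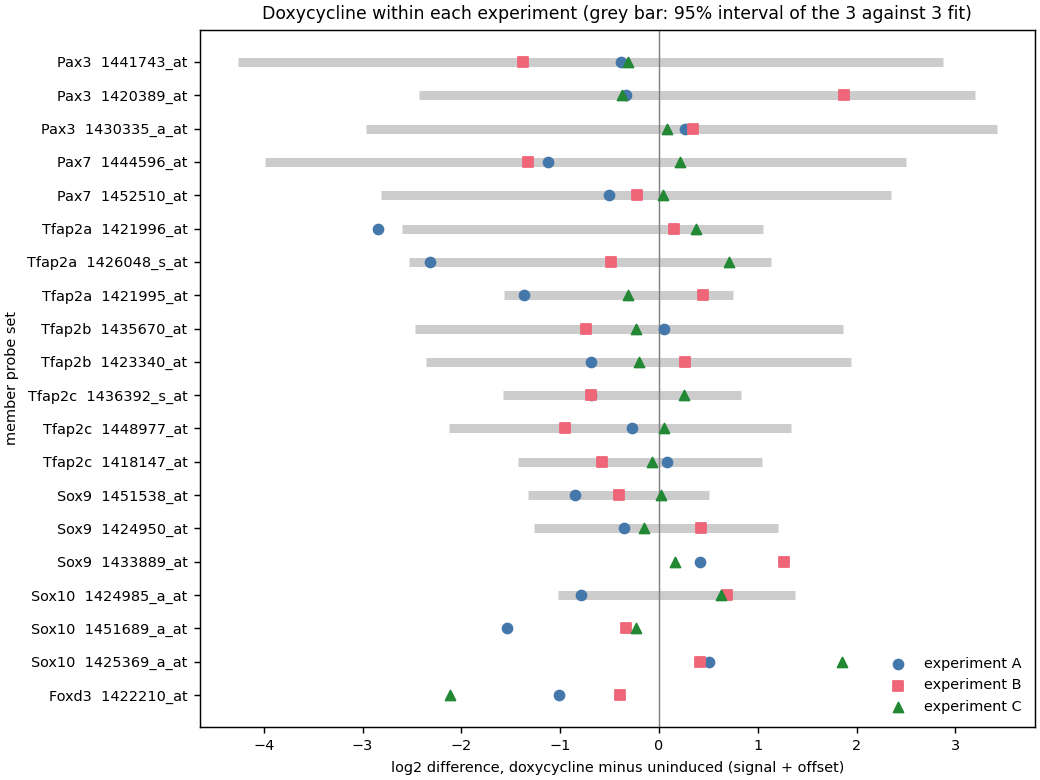
Log2 difference of the doxycycline array from the uninduced array within experiments A, B and C (circles, squares and triangles) for the 20 member probe sets; grey bars are 95% confidence intervals of the comparison of 3 against 3 arrays, drawn for the 16 tested. All grey bars cross 0, and their width includes the spread between experiments. With the replicate block, which is not drawn, the interval of Pax3 1441743_at was -1.32 to -0.06 (limma, adjusted p = 0.930). The farthest point to the left is Tfap2a 1421996_at in A at -2.84, and Foxd3 has all 3 points to the left of 0.

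Among the border genes the 3 probe sets of Pax3 disagreed on the sign. On 1441743_at the uninduced mean was 682.4 ± 691.8 (SD, n = 3) and the induced mean 528.2 ± 571.6 (SD, n = 3); the difference was -0.69 (-4.26 to 2.88), lower in 3 of 3 experiments (-0.39, -1.37 and -0.31), and its interval with the replicate block was -1.32 to -0.06 (unadjusted p = 0.0353, adjusted p = 0.930). On 1430335_a_at the difference was 0.23 and higher in 3 of 3 experiments, and on 1420389_at it was 0.39, from -0.33, 1.87 and -0.38 in A, B and C. The disagreement was greatest in B, where no Pax3 signal exceeded 83.8. Pax7 had lower signals with doxycycline in A and B and slightly higher ones in C on both probe sets: -1.13, -1.32 and 0.21 on 1444596_at, for a mean difference of -0.75 (-3.99 to 2.50, unadjusted p with the block 0.0621, adjusted p = 0.930).

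The point estimates of all 8 AP-2 probe sets, which read 3 genes, lay below 0, none of them called, and the signs within single experiments were mixed. Tfap2a was lower with doxycycline in A on its 3 probe sets (-2.84, -2.31 and -1.36), a signal ratio of 7.88, 5.52 and 2.99 between the uninduced and the induced array; a ratio over 3 in A occurred on 1.51% of all tested probe sets. In B the differences were 0.15, -0.48 and 0.44 and in C 0.38, 0.70 and -0.32. The mean difference on 1421996_at was -0.77 (-2.60 to 1.06), and 0.24 without the uninduced array of A. Tfap2b stood at -0.30 (-2.47 to 1.87) and -0.21 (-2.36 to 1.94), and in C, where it was bright, at -0.23 and -0.20. With the replicate block its intervals were -0.95 to 0.35 and -1.07 to 0.65. Tfap2c stood at -0.38, -0.39 and -0.19 on its 3 probe sets, lower in B on each.

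For the crest specifiers the differences were small or rested on dim signals. Sox9 stood at -0.41 (-1.33 to 0.50) on 1451538_at, which became -0.075 without the uninduced array of A. On Sox9 1424950_at the difference was -0.026 (-1.26 to 1.21), and on Sox10 1424985_a_at 0.17 (-1.02 to 1.37). Foxd3 was lower with doxycycline in 3 of 3 experiments, at 8.37 ± 0.666 (SD, n = 3), against 50.8 ± 43.9 (SD, n = 3) uninduced. All values except that of the uninduced array of C were under the limit for testing. In a fit without the filter the difference was -1.17 (-2.22 to -0.12, unadjusted p = 0.0322, adjusted p = 0.99994), and with the replicate block the adjusted p was 0.937. The dim probe sets of Sox10 pointed both ways in 3 of 3 experiments, lower on 1451689_a_at and higher on 1425369_a_at, and that of Sox9 was higher in 3 of 3. In all, 6 of the 20 member probe sets had one sign in 3 of 3 experiments, 2 of them among the 16 tested, where 26.0% of all tested probe sets did.

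On the pathway and marker lists 0 genes were called with doxycycline. Of the border genes 8 of 11 tested were higher and 3 lower, with a median of 0.25: Msx1, a BMP target, had signals of 1264, 1858 and 1171 without and 1452, 2839 and 2099 with doxycycline in A, B and C, a difference of 0.55 that was higher in 3 of 3 (unadjusted p = 0.110 without and 0.0135 with the block). Msx2 stood at 0.35 (0.217 and 0.0491). Among crest specifiers 13 of 20 were higher and 7 lower, with Foxc2 at 0.87 and Twist1 at 0.38 having the smallest p, and Snai2 at -0.86 (0.579 without and 0.00327 with the block). The median was 0.10 for these, -0.079 for migratory crest, -0.084 for crest derivatives and 0.04 for the inducing signals, beside 0.02 over all 12452 tested genes.

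The genes whose log2 signals ran most closely with each tested member over the 6 arrays were taken from 12451 others by Pearson's r. These arrays come from 3 experiments, and for Pax3, Pax7 and Tfap2b the values mainly describe differences between experiments. For Tfap2a and Sox9 they mainly describe the high uninduced array of A, and for Sox10 differences within experiments as well. Pearson's r does not compare sizes: Tfdp1, nearest to Pax7, held 2410 to 4117, where Pax7 1444596_at held 4.1 to 915.2. Pax3 ran with the neural progenitor gene Sox1 (r = 0.996; signals of 350.7 and 385.9 for A, 45.3 and 8.6 for B, and 1016 and 966.9 for C), C130021I20Rik (0.995) and E2f2 (0.995). Tfap2b ran with Rassf2 (0.999; 128.9 to 189.0 in A and B, 763.7 and 683.8 in C), Supt16 (0.995) and Kbtbd11 (0.995). Nearest to Tfap2a were Sash1 (0.999), AA386476 (0.996) and Tnpo1 (0.994). Sash1 likewise had its highest value, 3550, on the uninduced array of A, against 1325 to 1719 elsewhere. For Pax7 they were Tfdp1, Eri1 and Pomt1 (0.995 each), for Tfap2c Zfp12, Ssx2ip and Clip1 (0.994 to 0.998), for Sox9 Ireb2, Ankrd27 and Brd2 (0.988 to 0.994), and for Sox10 Trpc7, Syngr1 and Fcor (0.986 to 0.995). The probe sets of a member agreed at r of 0.87 to 0.96 for Pax3, 0.98 for Pax7, 0.86 to 0.95 for Tfap2a and 0.92 for Tfap2b, and at -0.66 to 0.78 for Sox9.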

How the data were processed

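Each probe set has 1 deposited intensity on each array (Affymetrix Mouse Genome 430 2.0, 1-cycle labelling per the labels), computed by MAS5 per the submitters' processing notes; its version and settings were not stated. With 2% trimmed at both ends the mean signal was 500.003 on all 6 arrays, which had thus been scaled before deposit and were used as they stood. Median signals were 92.0 to 108.6; precision is limited by the number of arrays. Of 45101 probe sets, 64 controls were left out. From the signals log2(signal + 18.8) was computed, 18.8 being their 20th percentile, which understates differences of dim probe sets. The 27022 probe sets with a mean at or above the 40th percentile were tested. Gene names come from the platform annotation in GEO, with symbols updated by Entrez ID through RefSeq (GRCm38.p6): 34945 probe sets had 1 gene, 932 several and 9160 none.

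limma 3.58.1 in R 4.3.3 (empirical Bayes with trend, two-sided, adjusted p by Benjamini-Hochberg over the 27022, threshold 0.05) compared doxycycline with uninduced, and the experiments by an F test and 3 pairwise contrasts with doxycycline as a term. The pairwise contrasts were each adjusted over all tested probe sets. The fits were tested on simulated data. The letters name a shared experiment in the labels; deviations from group means correlated at 0.45 to 0.67 for arrays of the same letter, so the letters were taken to pair the arrays. The design text calls the replicates biological. A gene is represented in lists by its brightest probe set. Named by rule were all members, and of each list up to 4 genes with the smallest F test p and up to 2 with the smallest doxycycline p. The 3 genes nearest to each tested member were also named by rule. Other genes were named outside the rule, among them Cdh6, Mycn, Rhob, Neurog1, Ngfr, Erbb3, Trp63, Krt14, Acan and Myf5. The members and lists were chosen with earlier results of these data known. The 14 lists share 12 genes, each found on 2 of them.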

Additional observations from a re-analysis of the deposited data

How the results depend on the processing

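No member was called with doxycycline under any alternative run (offsets of 1 and 64, no filter, quantile normalization, the replicate block, each array or each experiment left out), and 0 probe sets were called in all under each. The number of member probe sets called between experiments was 8 with both offsets, without the filter, with quantile normalization and without the doxycycline term, and 6 to 11 with 1 array left out; the number of all probe sets called then ranged from 1502 to 13806 around 3138 (8755 and 13806 without an array of A, 1502 to 1766 without one of B or C; the cause was not tested). Counts in B against A ranged from 3 to 10 around 5 with 1 array left out. C against A was the least stable: 4 became 2 with an offset of 1 and 2 without the filter, and 0 to 7 with 1 array left out. C against B, at 8, stayed between 6 and 10.

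Doxycycline differences of the members changed sign with 1 array left out, none past the threshold: from -1.96 to 0.92 for Pax3, -2.07 to 0.61 for Pax7, -1.38 to 0.24 for Tfap2a, -1.19 to 0.55 for Tfap2b, -0.85 to 0.078 for Tfap2c and -0.27 to 0.58 for Sox10; the cause was not tested. These fits had no replicate block, so leaving out 1 array left the groups with unlike sets of experiments. Both arrays of A, B or C were also left out in turn. Pax3 then stood at -0.84, -0.35 and -0.88, and Pax7 at -0.56, -0.46 and -1.22. Tfap2b stood at -0.48, -0.087 and -0.34, Tfap2c at -0.22, -0.22 and -0.69, and Sox9 at -0.19, -0.42 and -0.63. Tfap2a changed sign without A, at 0.26, and Sox10 without B or C, at -0.080 and -0.051. Sox10 in B against A was 0.027 with quantile normalization and -0.72 to 0.72 with 1 array left out. Tfap2a ranged from -2.79 to 0.32 in C against A and -0.35 to 1.37 in C against B, and Sox9 from -0.14 to 0.50 in C against B. Over the lead probe sets, 85 of 98 doxycycline values and 206 of 231 experiment values kept direction and side of the threshold. Without detection calls, dim levels cannot be told from background.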
